A study of Rattus norvegicus with 3 samples.

Results

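The 10 genes described here are markers of undifferentiated spermatogonia, the germ cells of the testis that include the stem cells of spermatogenesis. They are Id4, Thy1, Upp1, Epcam, Zbtb16, Pou5f1, Cd9, Mcam, Neurog3 and Egr4. They were found by matching the RefSeq accession of each probe set, the array's reporters for 1 transcript, to these rat gene symbols, and this gave 11 probe sets of the 26419 on the array, because Mcam has 2. The rats were of the Wistar-Imamichi stock, and their testes were removed on postnatal days 6, 8 and 10, with the day of birth counted as day 1. Total RNA of the whole testis, labelled with Cy3, was measured on a one-colour NimbleGen array for each day. The study screened genes by fold change between these days. The labels name no mutation or treatment, and they do not state how many animals gave each RNA.

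In rodents the gonocytes of the newborn testis settle on the wall of the seminiferous cords soon after birth and become spermatogonia, some of which stay undifferentiated while others start to differentiate. Undifferentiated spermatogonia are recognised by a set of transcription regulators and by surface proteins that are used to sort them. Most of the surface proteins are also made by other cells: Thy1 by lymphocytes, neurons and fibroblasts, Mcam by endothelial and smooth muscle cells, Epcam by epithelia, and Cd9 by many cell types. In RNA of a whole organ, fewer cells of a type and less RNA per cell cannot be told apart.

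Sequences listed as promoters of 6 of the 10 genes were read from RefSeq (build GRCr8, 250 bases before to 50 bases after the gene's annotated start). Whether transcription begins at that start was not tested. Those of Id4 and Upp1 are shown because the deposited values of both genes were over 2-fold higher on day 10 than on days 6 and 8, and that of Cd9 because its signal hardly differed between the days. Capitals mark the GC box (GGGCGG), the TATA box (TATAAA) and the CCAAT box (its reverse complement is ATTGG), each searched on both strands.
Id4 promoter, chr17:16598244-16598543, minus strand: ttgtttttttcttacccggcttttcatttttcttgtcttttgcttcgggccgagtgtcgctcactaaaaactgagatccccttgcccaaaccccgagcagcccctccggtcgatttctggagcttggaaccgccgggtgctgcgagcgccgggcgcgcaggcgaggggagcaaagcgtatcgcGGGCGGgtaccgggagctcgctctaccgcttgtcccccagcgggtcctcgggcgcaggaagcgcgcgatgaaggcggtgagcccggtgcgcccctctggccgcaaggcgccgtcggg
Upp1 promoter, chr14:88024420-88024719, plus strand: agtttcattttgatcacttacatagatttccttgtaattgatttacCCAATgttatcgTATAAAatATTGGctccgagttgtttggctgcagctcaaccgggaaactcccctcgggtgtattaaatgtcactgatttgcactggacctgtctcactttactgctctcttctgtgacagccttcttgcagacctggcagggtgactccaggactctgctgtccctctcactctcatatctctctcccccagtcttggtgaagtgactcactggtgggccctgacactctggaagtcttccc
Cd9 promoter, chr4:159975309-159975608, minus strand: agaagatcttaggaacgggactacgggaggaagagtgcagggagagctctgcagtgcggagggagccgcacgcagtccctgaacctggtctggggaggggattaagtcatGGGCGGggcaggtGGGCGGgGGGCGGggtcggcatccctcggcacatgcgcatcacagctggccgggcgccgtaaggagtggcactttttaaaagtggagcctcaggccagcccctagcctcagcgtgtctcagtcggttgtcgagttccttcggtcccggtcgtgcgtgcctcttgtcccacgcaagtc
The Id4 window held 1 GC box, starting 67 bases before the annotated start, and none of the other marked motifs. The 50 bases after that start begin with atg, the letters of a start codon, so 67 is not a distance from a known transcription start. The Upp1 window held no GC box but a TATA box starting 192 bases before its annotated start, with a CCAAT box on each side of the TATA box. These did not overlap. The bases just before the annotated Upp1 start are mostly c and t and end in ag, as at the end of many introns. The Cd9 window held 3 GC boxes. Its GC content was 64.0%, against 65.0% for Id4, 47.7% for Upp1 and a median of 51.7% over all 33469 promoters of the table. Among the other promoters, that of Epcam held 4 GC boxes, that of Egr4 held 1 and that of Neurog3 none. Of all promoters, 33.1% held a GC box, 14.2% a TATA box and 37.5% a CCAAT box. The E-box (CANNTG), the site class of helix-loop-helix factors, was in 72.1% of all promoters. It was found in neither the Id4 nor the Upp1 window, 3 times in those of Cd9 and Neurog3, 2 times in that of Epcam and 1 time in that of Egr4. Of these, 1 E-box of Cd9 shared a base with a GC box and no other overlapped a marked motif. The site of EGR factors (GCGNGGGCG), present in 4.98% of all promoters, was in none of the 6. Id4 and Upp1 shared none of the 5 motifs in these windows, and whether the windows act as promoters was not tested.

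With 1 array per day there was no spread between samples and no test, and the number of arrays limits the precision. Each difference compares 1 array with another, so effects of age, of the animal and of the array cannot be told apart. Levels are log2 of the authors' normalized intensity, and a difference is the later minus the earlier day on that scale. The floor of an array was its median, at log2 7.78 on day 6, 7.79 on day 8 and 7.67 on day 10. For a pair of days, a gene was kept ("entered") if either array showed it above its floor, and it was called at 2-fold or more. Background was also read from 1239 odorant and pheromone receptor probe sets, whose 95th percentile lay at log2 5.70, 5.60 and 6.11 on days 6, 8 and 10, and from a random-sequence control at log2 4.64, 4.62 and 4.68. Where a gene had several probe sets, their day 10 minus day 6 differences had a pooled SD of 0.40 (61 genes), a spread within arrays that says nothing of the spread between animals. Since probes differ in how they bind, the level of a gene was set only against its own level on another day.

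Of the 10 genes, 5 were above the floor on all 3 days (Thy1, Upp1, Epcam, Cd9 and Mcam), 2 on day 10 only (Id4 and Pou5f1) and 3 on no day (Zbtb16, Neurog3 and Egr4). Against the receptors' 95th percentile, 8 were above it on all 3 days, and 2, Zbtb16 and Neurog3, on none. Thus 8 genes had signal over that background, which in RNA of a whole organ does not show which cells made it. Of the group's defining transcription factors, 2 were not well above background.

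**Figure D1:**
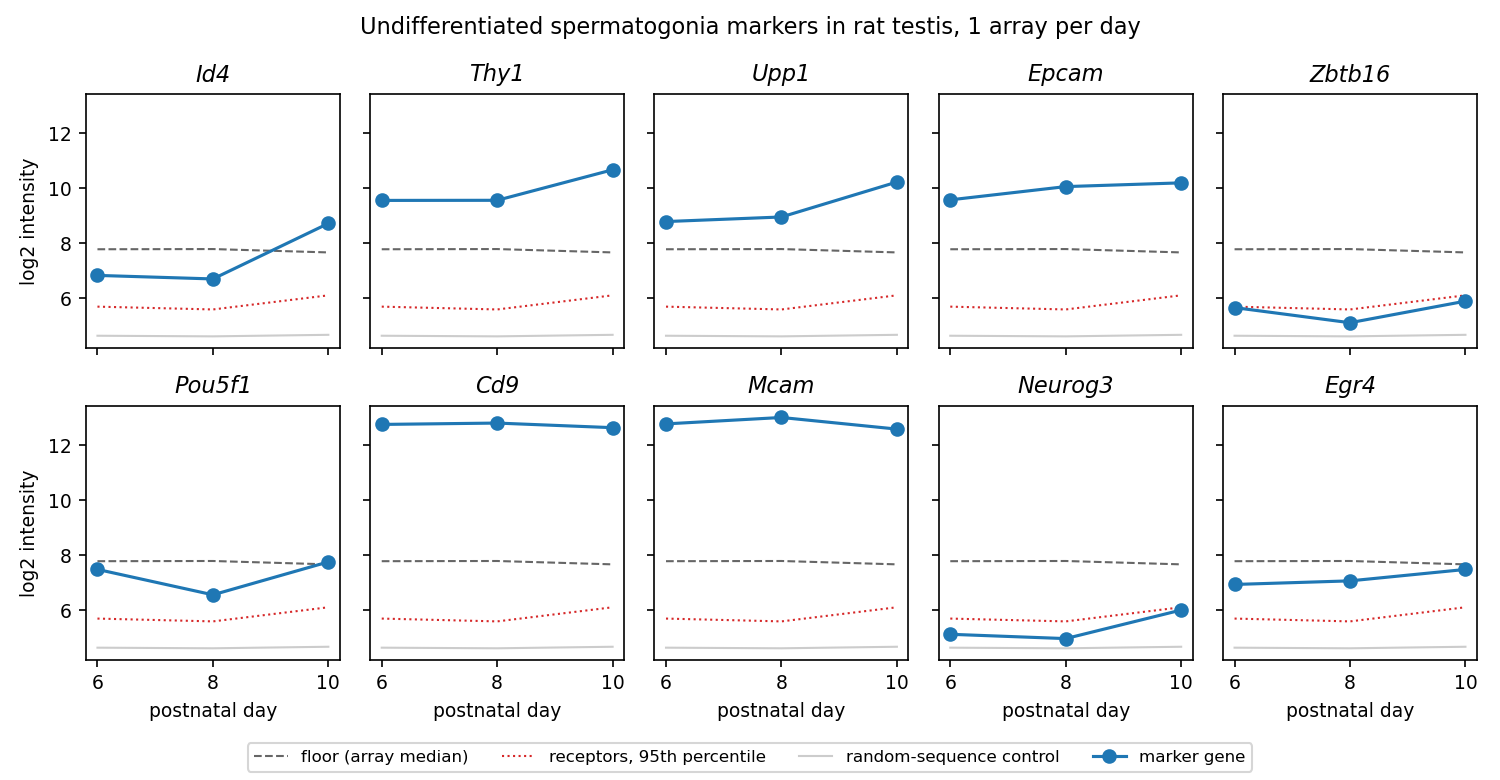
Log2 intensity (vertical axis) of each of the 10 markers on postnatal days 6, 8 and 10 (horizontal axis), 1 array per day, with the floor (dashed), the 95th percentile of the receptors (dotted) and the random-sequence control (grey). Id4, Thy1 and Upp1 stand higher on day 10 than on both earlier days, Cd9 stays between 12.63 and 12.80, and Zbtb16 and Neurog3 lie under the dotted line on every day; heights are not comparable between genes.

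Among the transcription regulators, Id4 had the greatest difference. Id4 is an inhibitor of helix-loop-helix factors that in mice marks the spermatogonial stem cells. Its intensities on days 6, 8 and 10 were 114, 104 and 422, which is log2 6.83, 6.70 and 8.72. Days 6 and 8 were both under the floor and above the receptors, and day 10 was above both. As deposited, the day 10 value was 3.70-fold that of day 6 and 4.04-fold that of day 8. Against the floor of the dimmer array, Id4 was at least 1.92-fold higher on day 10 than on day 6 and at least 1.91-fold higher than on day 8. Id4 entered these comparisons only through day 10, where it is high.

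Neurog3, a helix-loop-helix activator of undifferentiated spermatogonia on the way to differentiation in mice, had intensities of 35.0, 31.4 and 64.4 on days 6, 8 and 10 (log2 5.13, 4.97 and 6.01). Day 10 was the highest, but all 3 values were below the receptors' 95th percentile, so no fold is given.

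Zbtb16 (also named Plzf), a zinc finger repressor needed for stem cell maintenance in mice, had 50.7, 34.6 and 59.6 (log2 5.66, 5.11 and 5.90). It too was below the receptors' 95th percentile on each day, and no fold is given.

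Pou5f1 (also named Oct4), the pluripotency factor that undifferentiated spermatogonia of young rodents still make, had 179, 94.5 and 217 (log2 7.48, 6.56 and 7.76). Day 8 was the lowest and day 10 the only day above the floor. The difference was 0.27 for day 10 minus day 6 and -0.92 for day 8 minus day 6, where both days were under the floor. Between days 10 and 8 it was 1.20, or 2.29-fold higher as deposited. The floor of day 8 was above the day 10 value, so this last fold has no lower bound against the floor, although all 3 values were above the receptors.

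Egr4, a zinc finger factor of the immediate early class that is required for germ cell maturation in male mice, had 123, 134 and 179 (log2 6.94, 7.07 and 7.48). It was under the floor on each day and above the receptors on each day, with a day 10 minus day 6 difference of 0.55. By the deposited values, its relatives Egr1, Egr2 and Egr3 had the opposite direction. Egr1 had log2 14.09, 13.51 and 12.32 on days 6, 8 and 10, a difference of -1.76, or 3.40-fold lower on day 10 than on day 6. Egr2 had 7.97, 7.35 and 5.93 and Egr3 8.27, 7.66 and 4.95, above the floor on day 6 only and below the receptors' 95th percentile on day 10, at least 1.23-fold and at least 1.52-fold lower on day 10. The signs of the deposited differences of Egr4 and Egr1 were the same under each of the 3 scalings. The Egr4 difference was only 0.17 with the trend by gene length subtracted. Raised to the floor it was -0.12, which is the difference of the floors alone, so the Egr4 direction is uncertain.

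Among the surface proteins, Thy1, a small glycoprotein with a lipid anchor used to sort rat and mouse stem cells, had intensities of 753, 756 and 1629.6 (log2 9.56, 9.56 and 10.67). Days 6 and 8 were equal to within 0.004 on the log2 scale, and day 10 stood above both. It was 2.16-fold higher on day 10 than on day 6 and 2.16-fold higher than on day 8.

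Epcam, an epithelial adhesion molecule also used to sort rat spermatogonia, had 764, 1067 and 1172 (log2 9.58, 10.06 and 10.20). Days 8 and 10 were both above day 6. The difference was 0.62 for day 10 minus day 6, a 1.53-fold higher value that was short of 2-fold. Of this, 0.48 lay between days 6 and 8 and 0.14 between days 8 and 10.

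Cd9, a tetraspanin on the surface of rodent stem cells and of many other cells, had 6894, 7134 and 6353 (log2 12.75, 12.80 and 12.63). Its largest difference was -0.17, for day 10 minus day 8. The day 10 minus day 6 difference was -0.12 as deposited and 0.099 with the trend by gene length subtracted.

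Mcam (CD146), an adhesion molecule of the immunoglobulin superfamily, averaged log2 12.77, 13.00 and 12.58 on days 6, 8 and 10. The day 10 minus day 6 difference was -0.19 and the day 10 minus day 8 difference -0.42. Its 2 probe sets, for different transcripts, did not move alike. The brighter had 10854, 13367 and 7882, with day 10 lowest, and the dimmer had 4499, 5045 and 4767, with day 6 lowest. The day 10 minus day 6 difference was -0.46 in the brighter and 0.084 in the dimmer, and that of day 10 minus day 8 was -0.76 in the brighter and -0.082 in the dimmer. Neither reached 2-fold.

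Upp1, uridine phosphorylase, an enzyme of pyrimidine salvage whose transcript is enriched in undifferentiated spermatogonia of mice, had intensities of 442, 497 and 1196.9 (log2 8.79, 8.96 and 10.23). All 3 were above the floor. Day 10 was 2.71-fold higher than day 6 and 2.41-fold higher than day 8, whereas day 8 was 1.12-fold higher than day 6.

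Day 10 against day 6 spanned the whole interval. Of the 10 genes, 7 entered and 3 were called higher: Id4, Upp1 and Thy1. None was called lower. Of 13955 genes of the whole array that entered, 8.57% were called higher and 12.8% lower. After centring of the arrays on their medians these shares were 10.9% and 10.8%, and the same number of the 10 genes was called higher. Without a floor, 3 of all 10 genes and 7.29% of all genes were at least 2-fold higher. Over all 10 genes with no floor, the median difference was 0.58 and 8 were positive, 3 of them under the floor on each day, against a median of 0.035 and 52.2% positive over all genes. Of the 7 genes that entered, 5 were positive, against 51.3% of all genes that entered, and Id4 and Pou5f1 entered only through day 10.

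Day 8 against day 6 was the first step. Of the 10 genes, 5 entered and 0 were called in either direction, and 0 were so without a floor. Of 13496 genes of the array, 0.519% were called higher and 0.978% lower. Over all 10 genes with no floor, the median was 0.027 and 6 were positive. Over all genes the median was 0.022 and 52.3% were positive.

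Day 10 against day 8 was the second step. Of the 10 genes, 7 entered and 4 were called higher: Id4, Upp1, Pou5f1 and Thy1. None was called lower. Of 13969 genes of the array, 8.56% were called higher and 13.7% lower. Id4 and Pou5f1 entered only through day 10, where they are high. Over all 10 genes with no floor, the median was 0.91 and 8 were positive, 3 of them under the floor on each day. Over all genes the median was 0.022 and 51.4% were positive. This comparison and that of day 10 with day 6 share the day 10 array, so a gene bright on that array is high in both.

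**Figure D2:**
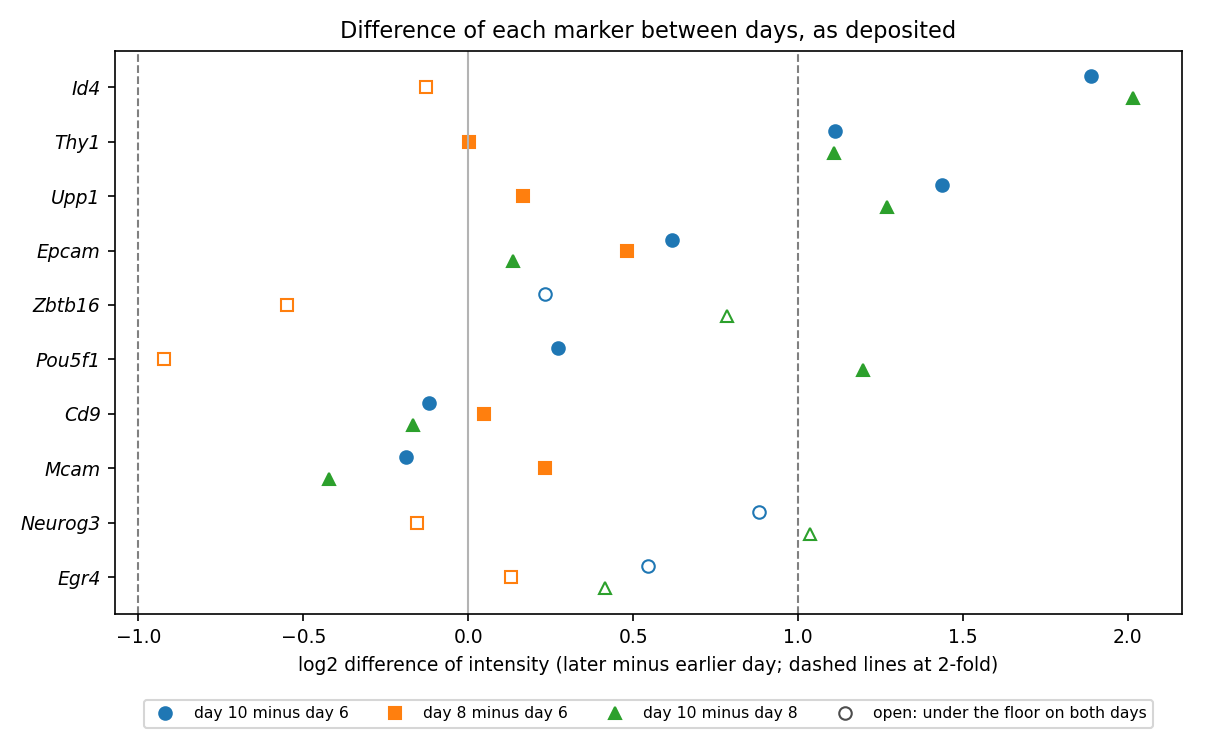
Log2 difference of intensity, later minus earlier day (horizontal axis), of each marker (vertical axis), with circles for day 10 minus day 6, squares for day 8 minus day 6 and triangles for day 10 minus day 8; open symbols are genes under the floor on both days and dashed lines mark 2-fold. No square reaches 2-fold, while the filled triangles of Id4, Thy1, Upp1 and Pou5f1 lie to the right of it, from 1.11 to 2.02, and so does the open triangle of Neurog3, at 1.04, a gene below the receptors' 95th percentile on both days.

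By their deposited values, the genes above the floor on at least 1 day followed 4 courses. Id4, Thy1 and Upp1 were within 0.17 of their day 6 level on day 8 and at least 1.11 above their day 8 level on day 10. Epcam had most of its difference between days 6 and 8. Pou5f1 was lowest on day 8. Cd9 was highest on day 8 and lowest on day 10, within 0.17. The Mcam average and its brighter probe set had the same order of days, with day 10 minus day 8 differences of -0.42 and -0.76. The dimmer Mcam probe set did not have this order.

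The named genes nearest in course to the 3 genes called between days 10 and 6 were sought among 4970 genes above the floor on all 3 days. The measure was the Euclidean distance between the 3 log2 values, each gene centred on its own mean. For Id4 the nearest were the troponins Tnnc2 (0.16) and Tnnt2 (0.26), and 0 genes lay within 0.1. For Thy1 they were Mettl18 (0.036) and Trmt10b (0.038), and 20 genes lay within 0.1. For Upp1 they were Srek1ip1 (0.035) and Cdc34 (0.046), and 7 genes lay within 0.1. With 3 points, such nearness is a description of 3 arrays.

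Differences between days 10 and 6 moved with the length of a gene on the genome across the array (Spearman's rho -0.43 over 5518 named genes, which are not independent replicates). The 10 genes span 1.48 to 188 kb, and 6 of them are under 10 kb. With this trend subtracted, the difference was 1.51 for Id4 (2.57 kb), 1.47 for Upp1 (19.9 kb) and 0.83 for Thy1 (5.15 kb), so that Thy1 was no longer past 2-fold. The part of gene length in the remaining difference was not tested.

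**Figure D3:**
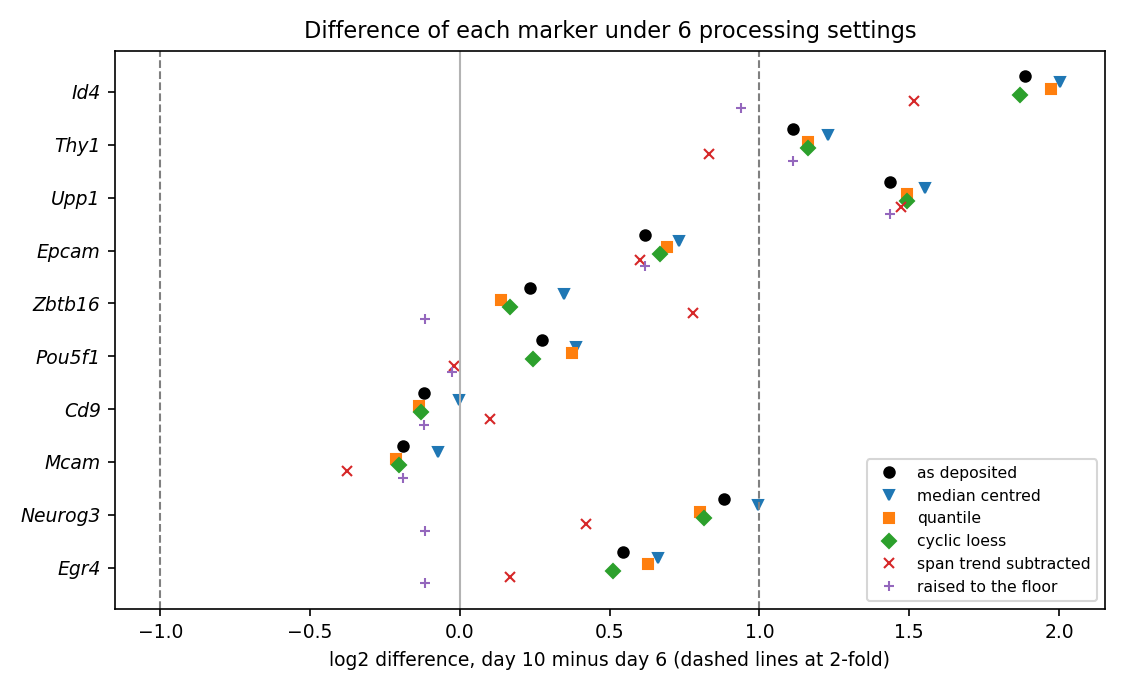
Log2 difference, day 10 minus day 6 (horizontal axis), of each marker (vertical axis) as deposited and under 5 other settings, with dashed lines at 2-fold. Upp1 stays past 2-fold under all of them, from 1.44 to 1.55, Id4 falls to 0.94 with values raised to the floor, and Thy1 to 0.83 with the span trend subtracted.

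Other genes of undifferentiated spermatogonia did not share 1 direction. Of 31 listed, 8 were matched on the array and 5 entered between days 10 and 6, of which 1 was called higher and 2 lower (median of the 8, 0.35). Ret, the signalling subunit of the GDNF receptor, had log2 8.41, 9.50 and 9.86 on days 6, 8 and 10, and was 2.74-fold higher on day 10 than on day 6. Unlike Id4, Thy1 and Upp1, it was already past 2-fold on day 8. Gfra1, the GDNF-binding coreceptor, had 7.15, 8.08 and 7.64, above the floor on day 8 only. Cdh1 (E-cadherin), an adhesion protein of these cells and of epithelia, was 5.54-fold lower on day 10, with 11.11, 10.70 and 8.64. Cd24, a surface protein with a lipid anchor, had 8.11, 7.04 and 5.84, at least 1.36-fold lower on day 10. Tspan8, a tetraspanin, and Ddit4, a stress response gene, differed by 0.42 and 0.28, the second with a negative sign once the span trend was subtracted. Lhx1 and Pdx1 were under the floor on each day.

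Markers of differentiating spermatogonia and general germ cell genes give the surrounding picture. Of 6 differentiating genes on the array, 4 entered, 0 were called higher and 1 lower (median of the 6, -0.23). That gene was Kit, the receptor for stem cell factor, which Leydig cells also make, with log2 9.59, 9.86 and 7.93. Of 8 general germ cell genes, all of which entered, 1 was called higher and 1 lower (median -0.10). Tex101, which sits on the surface of germ cells, had 9.50, 10.38 and 11.52 on days 6, 8 and 10, and was 4.07-fold higher on day 10 than on day 6. Dnmt3l, a cofactor of the enzymes that methylate DNA in gonocytes, was above the floor on day 6 only (9.39, 6.67 and 6.80). Ddx4 (also named Vasa), an RNA helicase of all germ cells, had 11.17, 11.15 and 11.33, a day 10 minus day 6 difference of 0.15. Gtsf1, of the piRNA pathway, had 9.52, 9.42 and 10.45, a difference of 0.93, and Sycp3, of the synaptonemal complex, had 9.32, 8.36 and 8.71, a difference of -0.61.

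Markers of other cell types that make some of the 10 proteins were read beside them. For Thy1, 10 lymphocyte genes were on the array and 1 entered, Cd4. It was called lower on day 10 than on day 6, by at least 1.13-fold against the floor. The median of the 10 genes was 0.53. Their summed intensity was 578, 729 and 602 on days 6, 8 and 10. With Cd4 the sum was thus highest on day 8. The other 9 genes, all under the floor on each day, summed to 348, 371 and 511, highest on day 10. Much of that came from Cd2, at 25.5, 37.7 and 103. Of these 9, 3 were above the receptors' 95th percentile on day 6, 3 on day 8 and 3 on day 10. Cd2 had log2 4.67, 5.24 and 6.69, Zap70 5.93, 5.83 and 6.47 and Cd79b 5.76, 5.29 and 6.36. These were the 3 above that percentile on day 10, and each was highest on day 10. Cd3d and Cd8a were highest on day 8 and Cd5 on day 6. Cd3g, Cd8b and Cd28 were below that percentile on all 3 days. Of 7 fibroblast and mesenchyme genes, which all entered, 0 were called higher and 1, Fbn1, lower (median -0.51). With the span trend subtracted, Fbn1 had -0.74, short of 2-fold. The summed intensity of the 7, to which the bright collagens add most, was 129561, 125422 and 102685. The collagens hardly differed between days 10 and 6 (Col1a2 -0.0079 and Col3a1 -0.080), while Dcn had -0.78 and Lum -0.98. The part of lymphocytes and fibroblasts in the Thy1 signal was not tested.

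For Mcam, 12 of 13 endothelial and pericyte genes entered, 0 were called higher and 4 lower: Notch3, Eng, Clec14a and Kdr (median of the 13, -0.91). Their summed intensity was 17376, 18855 and 14074 on days 6, 8 and 10. The brighter Mcam probe set had the same order of days and the dimmer, lowest on day 6, did not. That order was not particular to this list, since the sum of the genes listed for differentiating spermatogonia, at 32868, 37398 and 25884, had it too. Ccnd2, Uchl1 and Dmrt1 add most of that sum, and Uchl1 itself was highest on day 10. Dmrt1 was also listed as a general germ cell gene. Of 6 smooth muscle and peritubular genes, all entered, 0 were called higher and 1, Cald1, lower (median -0.16). With the span trend subtracted, Cald1 had -0.81, short of 2-fold. The summed intensity of the 6 was 72607, 67587 and 67232, highest on day 6, unlike either Mcam probe set. The part of endothelial, pericyte, smooth muscle and peritubular cells in the Mcam signal was not tested. For Epcam, 7 of 11 epithelial and mesothelial genes entered, 2 were called higher (Cldn4 and Msln) and 1 lower (Cdh1), with a median of 0.15 over the 11. Cldn4 was under the floor on day 6. The floor of day 6 was above its day 10 value, so its fold has no lower bound against the floor. With the span trend subtracted, Cldn4 had 0.92. The part of epithelial and mesothelial cells in the Epcam signal was not tested.

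Somatic cells of the testis showed the following. Of 12 Sertoli cell genes, 2 were called higher (Rhox5 and Cst12) and 2 lower (Gata4 and Fshr), with a median of 0.21. With the span trend subtracted, Gata4 and Fshr had -0.90 and -0.50, both short of 2-fold. Of 7 Leydig cell genes, 6 entered, 0 were called higher and 3 lower (Star, Cyp17a1 and Hsd3b1, of steroid synthesis), with a median of -0.93. Of 9 macrophage genes, 1, C1qb, was called higher and 0 lower, with a median of 0.33. With the span trend subtracted, C1qb had 0.80, short of 2-fold. Of 13 immediate early genes, 11 entered, 0 were called higher and 3 lower, Egr1, Egr2 and Egr3, with a median of -0.24. The part of changed cell shares in the marker signals was not tested.

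**Figure D4:**
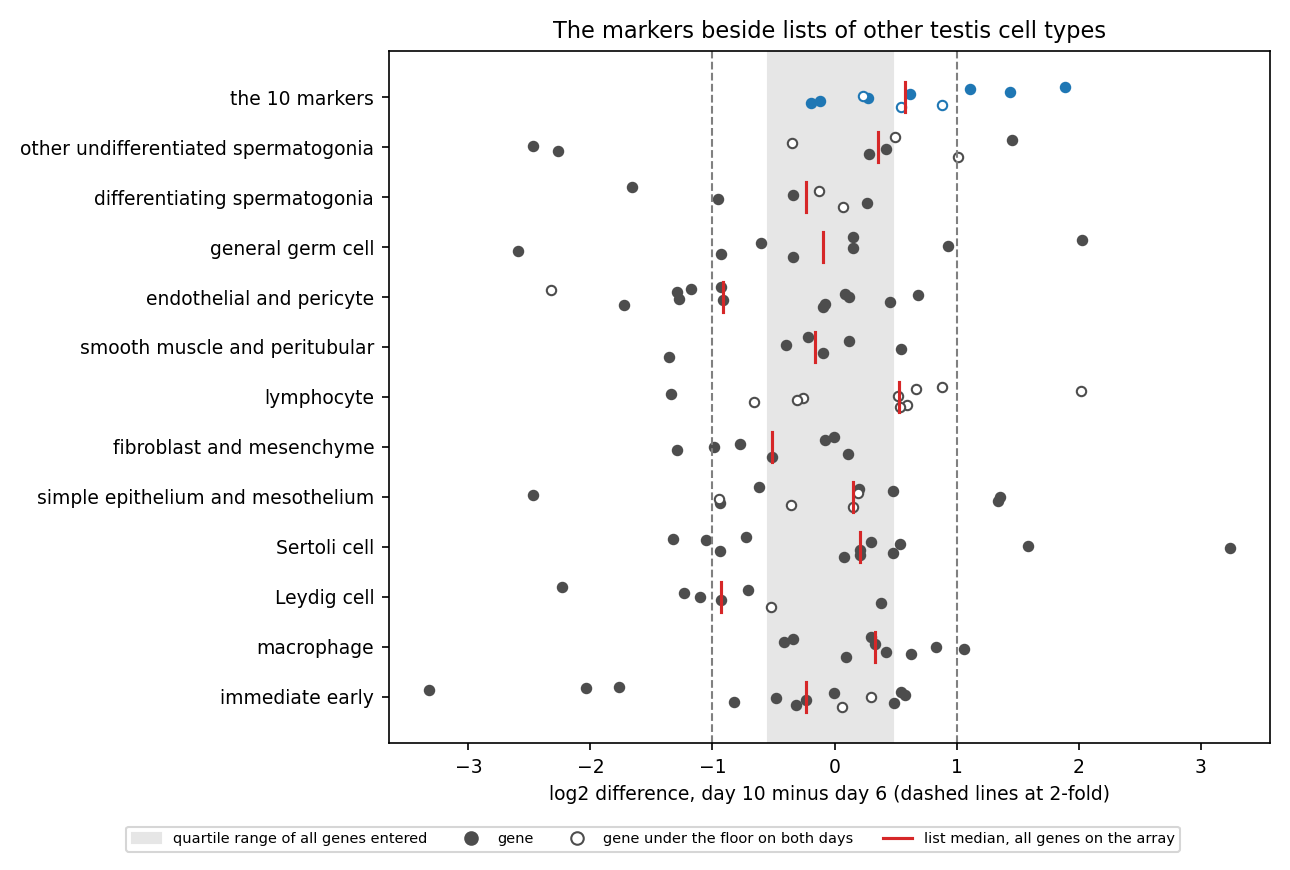
Log2 difference, day 10 minus day 6 (horizontal axis), of each gene of the 10 markers and of 12 lists of other genes (vertical axis), with the list median in red over all its genes on the array and the range between the quartiles of all genes that entered, from -0.54 to 0.48, in grey. The 10 markers lie between -0.19 and 1.89, and open points are genes under the floor on both days.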

How the data were processed

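Total RNA of rat testis from 3 ages was measured on 3 NimbleGen arrays, 1 for each collection day the labels give. The deposited files hold an intensity per RefSeq accession on a linear scale, made with RMA per the submitters' processing notes; its version is not given in the sources used here. RMA draws arrays to a like distribution, which hides a shift shared by most genes. A deposited score, a standard error per the file headers with no stated scale, was not used. The series table held the same intensities (largest difference 0).

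Values were taken to log2 with Python 3.11.15 and pandas 2.3.3. Accessions without version were looked up among RefSeq genes of GRCr8: 9747 of 26419 probe sets (36.9%) had 1 symbol, 0 had several and 16672 were unnamed here. Probe sets of a gene were averaged, giving 26299 genes. The floor was the higher of the array median and the receptors' 95th percentile. The 2-fold threshold is that of the submitters' design text. The members, lists and rules were chosen with earlier results of these data known. Named genes were the 10 members and the 2 nearest in course to each called member. From each list came up to 3 genes with the largest difference and the brightest gene. Gfra1, Tspan8, Ddit4, Lhx1, Pdx1, Ddx4, Gtsf1, Sycp3 and Kdr were named after their values were seen. So were Cd2, Zap70, Cd79b, Cd3d, Cd8a, Cd5, Cd3g, Cd8b, Cd28, Col3a1, Uchl1 and Fshr. Alternatives were another floor or none, 3 scalings (limma 3.58.1 for quantile and cyclic loess), a lowess trend on gene span subtracted (statsmodels 0.14.6, fraction 0.3, 3 iterations), a 1.5-fold threshold, values raised to the floor and the brighter Mcam probe set. The calling and trend steps were tested on simulated data, with planted changes larger than 2-fold in probe sets brighter than the floor. Calls close to 2-fold or to the floor were not covered by that test.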

Additional observations from a re-analysis of the deposited data

How the results depend on the processing

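No paired analysis was possible because each day had 1 array, and no replicate could be left out. The count of the 10 genes called between days 10 and 6 was 2 with the span trend subtracted (4.40% of all genes higher), 2 with values raised to the floor (6.11%), 4 at 1.5-fold (20.4%) and 3 under the other 5 alternatives (7.29% to 10.9%), always higher on day 10. Between days 8 and 6 it was 0 under all 8 alternatives. Between days 10 and 8 it was 2 with values raised to the floor, against 4, because Id4 and Pou5f1 were under the floor on day 8; the other alternatives gave 3 to 5, the fifth being Neurog3 with no floor, at background on both days. With values raised to the floor the Pou5f1 difference between these days was -0.032, against 1.20, since the floor of day 8 was above its day 10 value, and that of Id4 was 0.93. With the span trend subtracted, Thy1 had 0.93 between days 10 and 8. At 1.5-fold, where 20.4% of all genes were higher and 23.7% lower, 2 differentiating genes were called between days 10 and 6, both lower, against 1, and 5 general germ cell genes, 2 higher and 3 lower, against 2. With median centring, the median over the genes that entered between days 10 and 6 was 0.14, against 0.023. The brighter Mcam probe set had log2 13.41 and 13.71 on days 6 and 8. Genes near the receptors' level, Zbtb16 and Neurog3, are limited by signal over background.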
